A study of Homo sapiens with 8 samples.

Results

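Chemokines that attract neutrophils, monocytes and T cells were followed in UWB1.289 ovarian carcinoma cells. The genes were chosen by name, as a panel of 10 chemokines, from the 25369 named genes in the table, and 9 of the 10 passed the filter on low counts. They were the neutrophil-attracting CXC chemokines CXCL1, CXCL2, CXCL3, CXCL5 and CXCL8, the T-cell-attracting CXC chemokines CXCL10 and CXCL11, and the CC chemokines CCL2, CCL5 and CCL20. Poly(A) RNA was sequenced from 8 libraries in 4 groups of 2. UWB1.289 is a human ovarian cancer cell line that has no functional BRCA1 (here BRCA1-null), and its derivative transduced with BRCA1 is called BRCA1+. Each line received DMSO (control) or 0.5 uM entinostat, an inhibitor of class I histone deacetylases, for 24 h. The libraries' labels name no empty-vector control for the BRCA1-null line, so effects of BRCA1 and of making the derived line cannot be told apart. Nothing states that the 2 libraries of a group came from separate cultures, so p-values measure the spread between these libraries, which may be technical.

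Chemokines are small secreted proteins that bind G protein-coupled receptors on leukocytes and direct their migration. The CXC chemokines with the Glu-Leu-Arg motif, encoded in a cluster on chromosome 4, act on CXCR1 and CXCR2 of neutrophils, whereas CXCL10 and CXCL11 are interferon-inducible ligands of CXCR3 on activated T cells. Many of these genes are transcribed through NF-kB sites close to their start, and AU-rich elements in their mRNAs shorten mRNA life.

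The sequences before the transcription start are shown for the 4 neutrophil-attracting genes that differed between the lines in the same direction, for CXCL8, which responded to entinostat in both lines, and for CXCL10, the member with the interferon-type motif. They were taken from RefSeq (GRCh38.p14), which held 8 of the 10 members and no entry for CCL2 and CCL5. Each is the stretch that ends at the base before the start, in the direction of transcription, at chr4:73869253-73869392 (plus strand) for CXCL1, chr4:74099196-74099335 (minus) for CXCL2, chr4:74038690-74038829 (minus) for CXCL3, chr4:73998678-73998817 (minus) for CXCL5, chr4:73740429-73740568 (plus) for CXCL8 and chr4:76023498-76023727 (minus) for CXCL10. Capitals mark matches to the kappaB consensus (NF-kB), the interferon-response-like motif (GAAA, any 2 bases, GAAA), the AP-1 motif TGANTCA and the TATA box TATAAA.
CXCL1: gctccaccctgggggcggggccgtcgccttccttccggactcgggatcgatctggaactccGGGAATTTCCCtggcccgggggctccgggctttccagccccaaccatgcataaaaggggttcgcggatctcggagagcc
CXCL2: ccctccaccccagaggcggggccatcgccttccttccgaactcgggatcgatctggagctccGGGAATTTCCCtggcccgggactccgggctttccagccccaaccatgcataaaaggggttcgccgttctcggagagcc
CXCL3: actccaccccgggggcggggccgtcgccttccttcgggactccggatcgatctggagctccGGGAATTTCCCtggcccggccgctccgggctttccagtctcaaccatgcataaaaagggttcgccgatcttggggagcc
CXCL5: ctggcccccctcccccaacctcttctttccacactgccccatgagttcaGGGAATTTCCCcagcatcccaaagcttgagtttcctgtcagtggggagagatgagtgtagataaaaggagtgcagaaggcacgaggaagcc
CXCL8: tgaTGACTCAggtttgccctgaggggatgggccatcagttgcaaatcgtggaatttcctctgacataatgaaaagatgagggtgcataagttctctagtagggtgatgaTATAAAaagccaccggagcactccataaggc
CXCL10: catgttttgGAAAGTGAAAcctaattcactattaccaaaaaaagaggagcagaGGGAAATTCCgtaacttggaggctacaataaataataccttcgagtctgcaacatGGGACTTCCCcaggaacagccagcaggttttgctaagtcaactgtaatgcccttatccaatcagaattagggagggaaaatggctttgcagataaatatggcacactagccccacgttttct

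The same 10 letters, GGGAATTTCC, lay in the upstream sequences of CXCL1, CXCL2, CXCL3 and CXCL5, beginning 79, 78, 79 and 91 bases before the start. Over windows of 300 bases (250 before and 50 after the start) and both strands, 7 of the 8 members in the table held a kappaB match, against 10.8% of 27305 windows and 13.0% of the windows of tested genes. The pattern searched was GGG, then A or G, any 2 bases, 2 places with C or T, and CC. CXCL8 was the member without a match to this pattern in its window. Its upstream sequence holds TGGAATTTCC, which differs from GGGAATTTCC in the first letter only. The interferon-response-like motif occurred in 1 member, CXCL10, and in 3.65% of all windows. TTCNNNGAA, the pattern of the GAS element bound by STAT dimers, occurred in CXCL5 and CXCL11 and in 7.88% of all windows, and in CXCL5 it overlapped the kappaB match. TATAAA occurred in 3 members (CXCL8, CXCL11 and CCL20) and 12% of all windows, and TGANTCA in 2 members (CXCL8 and CXCL11) and 7.76%. These are letter matches and not measured binding sites.

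Libraries held 31900158 to 53549893 counted reads. A count of 3, the upper limit that a count of 0 allows, corresponded to 0.0552 to 0.0946 counts per 1000000 (CPM), and this floor covers counting error only. BRCA1 transcripts were higher in all BRCA1+ libraries than in all BRCA1-null libraries, as the labels have it. The 10 epithelial markers (PAX8, WT1, EPCAM, KRT7, KRT8, KRT18, KRT19, MUC16, MSLN and CDH1) summed to 14100 to 18500 CPM per library. KRT7, KRT8 and KRT18 had the largest group means, 3580 to 5903 CPM, whereas WT1 had 0.05 to 0.42 CPM. BRCA1-null cells had 1 of the 10 called higher and 3 lower in each treatment. In DMSO 42.2% of all tested genes were called, and in entinostat 39.4%. The lower ones were WT1, KRT7 and CDH1, and the higher one was KRT8 in DMSO and EPCAM in entinostat. The 10 leukocyte markers summed to 5.05 to 10.6 CPM, and CD3D, CD2, MS4A1 and NKG7 had at most 3 counts in any library. Of the 4 leukocyte markers tested, CD14 was called lower in BRCA1-null cells in DMSO (-2.06, adjusted p = 0.00148) and under entinostat (-1.47, 0.00204), and LYZ was called higher in DMSO (1.25, 0.0354). The fibroblast markers COL3A1, DCN and LUM had 3 counts or fewer in every library, and the 6 fibroblast markers summed to 4.07 to 4.48 CPM in BRCA1+ control, 9.14 to 9.16 CPM in BRCA1-null control, 14.9 to 15.8 CPM in BRCA1+ entinostat and 17.5 to 22.6 CPM in BRCA1-null entinostat libraries. COL1A1 was called higher in BRCA1-null cells in DMSO (1.09, adjusted p = 0.000699) and under entinostat (0.44, 0.0203), and higher with entinostat in both lines. PDGFRA was called higher with entinostat in BRCA1+ cells, and lower in BRCA1-null than in BRCA1+ cells under entinostat. The 6 endothelial markers summed to 5.88 to 11.8 CPM in BRCA1+ and 11.5 to 17.4 CPM in BRCA1-null libraries, with VWF, KDR and ROBO4 called higher in BRCA1-null cells under both treatments. PECAM1 had values in the other direction, -0.95 in DMSO (adjusted p = 0.0832) and -0.93 in entinostat (0.0833), and TEK and CLDN5 were not called. The part of these marker lists in the chemokine differences was not tested.

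CXCL8, the principal neutrophil attractant in humans, was the most abundant of the 10 chemokines in each of the 4 groups, followed by CXCL1. On the scale of CPM per kilobase of gene length, the mean level of CXCL8 was 54.8 in BRCA1+ control, 103 in BRCA1+ entinostat, 53.8 in BRCA1-null control and 160 in BRCA1-null entinostat cells. CXCL1 followed with 20.9, 18.9, 34.5 and 49.6 on the same scale and in the same order of groups, and the libraries of the 2 genes did not overlap within any group. The third place was taken by CCL2 in BRCA1+ cells (3.38 and 4.26) and by CXCL5 in BRCA1-null cells (4.6 and 6.83). The lowest levels were those of CXCL10 and CXCL11 in all 4 groups. In BRCA1+ control cells, neighbours from CXCL8 down to CXCL10 did not overlap in the order CXCL8, CXCL1, CCL2, CXCL5, CCL5, CCL20, CXCL3, CXCL2 and CXCL10, whereas CXCL10 and CXCL11 overlapped. In BRCA1+ entinostat cells CCL20 overlapped CCL5, and CXCL11 overlapped CXCL10. In BRCA1-null control cells CCL20 overlapped CXCL3, and CXCL2 overlapped CXCL10. In BRCA1-null entinostat cells the order after CXCL5 was CCL20, CCL2, CXCL3, CXCL2, CCL5, CXCL10 and CXCL11, and CCL20 overlapped CCL2, CXCL2 overlapped CCL5, CCL5 overlapped CXCL10, and CXCL10 overlapped CXCL11.

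The summed length-scaled level of the 10 genes was 91.7 and 72.4 in the BRCA1+ control libraries, 147 and 113 after entinostat in that line, 115 and 81.0 in the BRCA1-null control libraries, and 256 and 192 after entinostat in the latter line. CXCL8 made up 52.5% to 79.7% of this sum in single libraries. In BRCA1-null control libraries its share was 56.3% and 52.5%, with CXCL1 at 33.5% and 37.3%. In BRCA1+ control libraries the shares were 68.9% and 64.1% for CXCL8 and 23.8% and 27.6% for CXCL1.

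**Figure D1:**
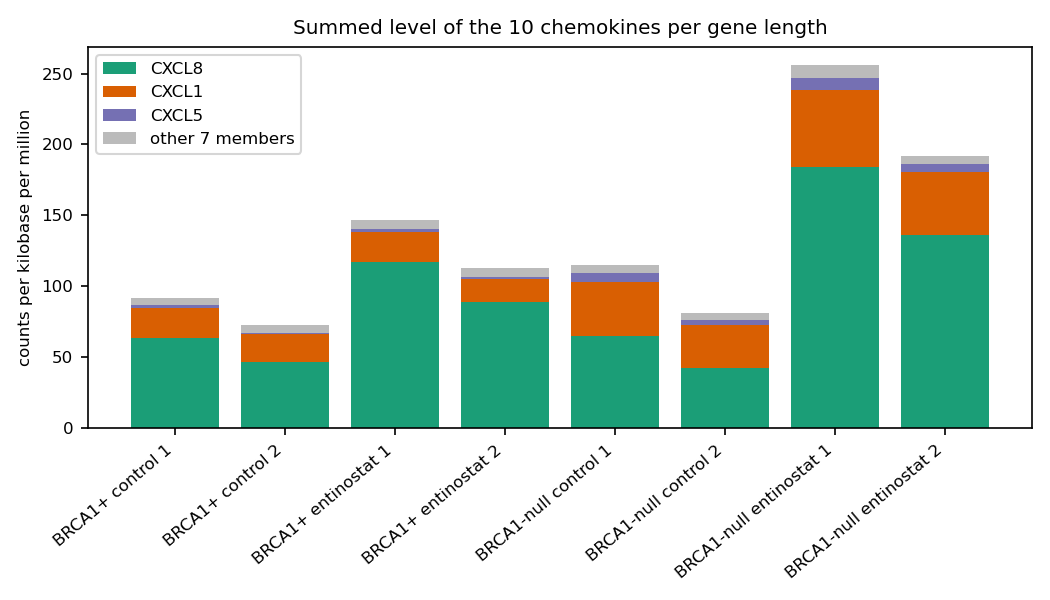
Summed level of the 10 chemokines in each of the 8 libraries (y axis, CPM per kilobase of gene length), stacked by CXCL8, CXCL1, CXCL5 and the other 7 members. CXCL8 forms the largest part of every bar, and the 2 BRCA1-null entinostat libraries have the highest sums, 256 and 192.

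In DMSO, BRCA1-null cells had more CXCL1, CXCL2, CXCL3, CXCL5, CXCL10 and CCL5 mRNA and less CCL2 mRNA than BRCA1+ cells, while CXCL8 and CCL20 were not called. Of the 9 tested chemokines 7 were called at an adjusted p under 0.05 (6 higher and 1 lower), where 42.2% of the 17714 tested genes were called (21.1% higher and 21.0% lower). The median log2 fold change of the 9 was 1.33, against 0.012 for all tested genes, and it was 1.03 without CXCL10, whose fitted value depends on counts near 0. CXCL10 and CXCL2 passed the filter on low counts only through BRCA1-null libraries, so they could enter this count only as higher or not called. Without CXCL10, 5 of 8 were called higher and 1 lower. In these cultures, fewer expressing cells and less RNA per cell cannot be told apart.

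CXCL1, a CXCR2 ligand also known as GRO-alpha, had 26.0 and 23.8 CPM in the BRCA1+ control libraries and 46.1 and 36.1 CPM in the BRCA1-null control libraries. All BRCA1-null libraries lay above all BRCA1+ libraries, and 70.9% of all tested genes had non-overlapping groups in the DMSO comparison. The difference was 0.72 ± 0.156 on the log2 scale (SE; n = 2 against 2; adjusted p = 0.00531), or 1.65-fold (95% interval 1.29 to 2.10). CXCL5, which also signals through CXCR2, had 4.0 and 2.48 CPM in BRCA1+ control and 14.9 and 8.04 CPM in BRCA1-null control libraries. It showed no overlap of the groups, with a log2 difference of 1.82 ± 0.378 (adjusted p = 0.00433). Both calls held in all 14 alternatives run.

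CXCL2, a CXCR2 ligand of the same subfamily, had 5 and 4 counts (0.125 and 0.0872 CPM) in BRCA1+ control and 18 and 24 counts (0.396 and 0.442 CPM) in BRCA1-null control libraries. The groups did not overlap, as was the case for 70.9% of all tested genes, and the log2 difference was 1.98 ± 0.614 (adjusted p = 0.0284). Leaving out any of these 4 libraries ended the call, with values of 1.73 to 2.23 and adjusted p of 0.0533 to 0.155. CXCL3 had 14 and 17 counts (0.350 and 0.370 CPM) in BRCA1+ control and 58 and 33 counts (1.28 and 0.607 CPM) in BRCA1-null control libraries. Its log2 difference was 1.33 ± 0.462 (adjusted p = 0.0436), and the call was close to the threshold. It was lost in the Wald test of DESeq2 (adjusted p = 0.0525), with only the groups compared (0.0589), and without each single library other than BRCA1-null control replicate 2. The value was 0.77 without BRCA1-null control replicate 1 and 1.29 to 1.38 in the other fits that lost the call, with adjusted p of 0.0507 to 0.212. CXCL1, CXCL2 and CXCL3 have similar coding sequences, which share 90.7% to 94.4% of their bases. Of the 50-base windows of their transcripts, 5.07% to 5.63% were shared between CXCL2 and either of the others, and 0.533% to 0.585% between CXCL1 and CXCL3. How the counting treated reads with several positions is not given in the sources used here, so their counts are uncertain to that extent.

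CXCL8 gave a contrast to its neighbours in the cluster. It had 108 and 79.1 CPM in BRCA1+ control and 111 and 72.5 CPM in BRCA1-null control libraries, and the groups overlapped. The log2 difference was -0.03 ± 0.232 (adjusted p = 0.935), with a 95% interval of 0.682- to 1.41-fold. On chromosome 4 (hg19) CXCL8 lies at chr4:74606223-74609433 and CXCL1 at chr4:74735109-74737019 on the plus strand. CXCL5 (chr4:74861359-74864446), CXCL3 (chr4:74902312-74904490) and CXCL2 (chr4:74962754-74964997) follow on the minus strand. The other annotated genes between CXCL8 and CXCL2, namely CXCL6, PF4V1, PF4, PPBP and PPBPP2, had 0 or 1 counts in every library.

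CXCL10 and CXCL11 were nearly absent from BRCA1+ cells and low in BRCA1-null cells. CXCL10 had 1 and 0 counts in BRCA1+ control and 28 and 12 counts (0.615 and 0.221 CPM) in BRCA1-null control libraries. The CPM ratio was 34.4 (exact conditional 95% interval 5.83 to 1390, counting error only), with an edgeR adjusted p of 0.0167. With BRCA1-null control replicate 1 left out and both BRCA1+ control libraries kept, the ratio was 19.0 (2.81 to 810). The call was lost without BRCA1+ control replicate 1 (adjusted p = 0.0559), BRCA1-null control replicate 1 (0.07) or BRCA1+ control replicate 2 (0.116), with fitted log2 differences of 7.17, 3.97 and 3.86. CXCL11 had 1 and 0 counts in BRCA1+ control and 9 and 4 counts in BRCA1-null control libraries. Its CPM ratio was 11.2 (1.68 to 475). With BRCA1-null control replicate 1 left out and both BRCA1+ control libraries kept, it was 6.32 (0.625 to 311). CXCL11 failed the filter, and without a filter its adjusted p was 0.155 with a log2 difference of 3.20. Both genes (chr4:76942269-76944689 and chr4:76954840-76957350, hg19, minus strand) lie within ART3 on the opposite strand, which had 0 to 2 counts in every library. CXCL9, the third CXCR3 ligand, had 0 counts in every library.

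The CC chemokines moved apart. CCL2, a monocyte attractant (chr17:32582296-32584220, plus strand), had 2.55 and 2.51 CPM in BRCA1+ control and 0.989 and 0.791 CPM in BRCA1-null control libraries, without overlap. It fell by 1.52 on the log2 scale in BRCA1-null cells (SE 0.221; adjusted p = 0.000615), to 0.350-fold. CCL5, which attracts T cells and monocytes (chr17:34198496-34207377, minus strand), had 0.876 and 0.959 CPM in BRCA1+ control and 1.87 and 2.89 CPM in BRCA1-null control libraries, again without overlap. Its log2 difference was 1.39 ± 0.296 (adjusted p = 0.00486). CCL20, the ligand of CCR6 (chr2:228678558-228682280, plus strand), had 0.475 and 0.479 CPM in BRCA1+ control and 0.857 and 0.534 CPM in BRCA1-null control libraries. Although the groups did not overlap, the log2 difference of 0.51 ± 0.553 did not pass the test (adjusted p = 0.491), and 70.9% of all tested genes had non-overlapping groups in this comparison. The calls of CCL2 and CCL5 held in all 14 alternatives.

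**Figure D2:**
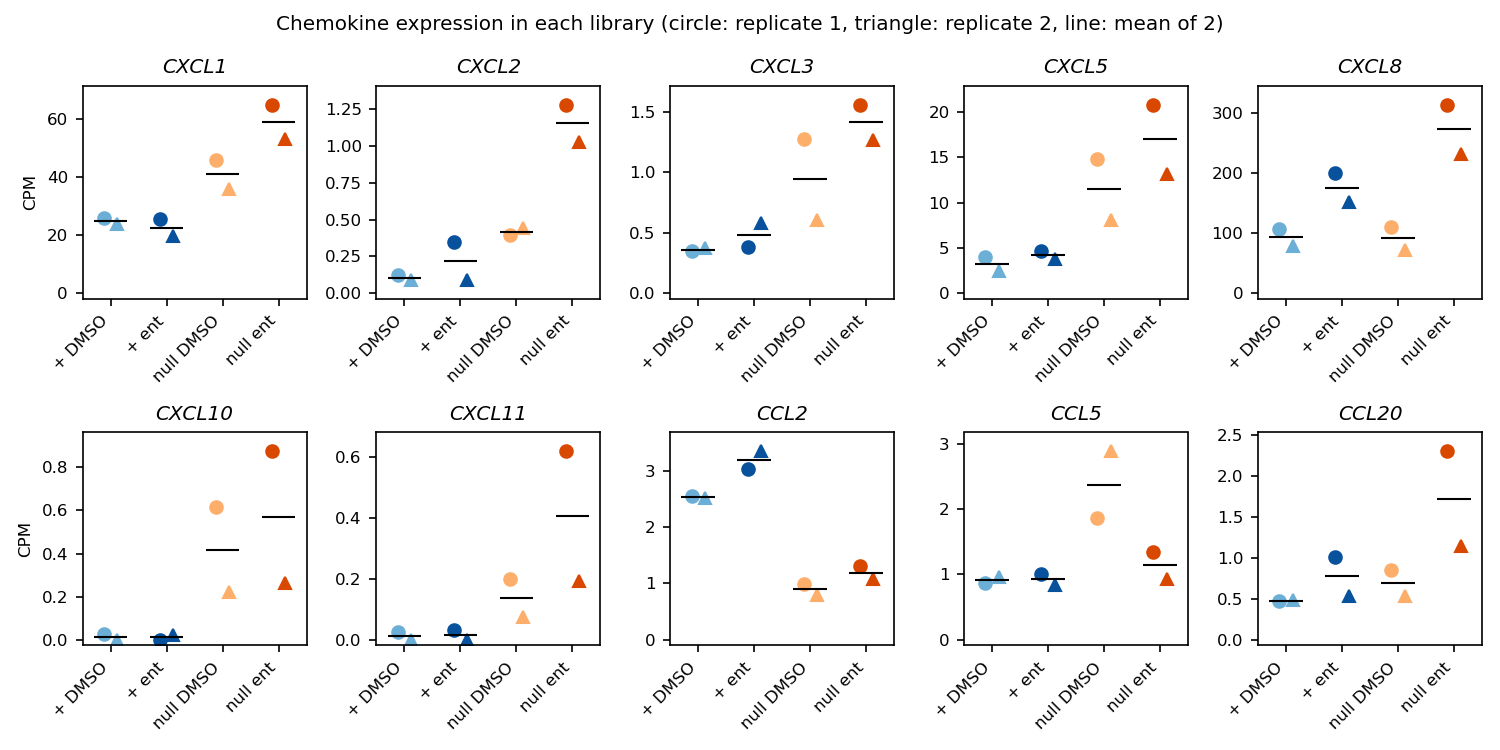
CPM of each chemokine (1 panel per gene, linear y axis from 0) in the 8 libraries, with circles for replicate 1, triangles for replicate 2 and a line at the mean of each group (+ for BRCA1+, null for BRCA1-null, ent for entinostat). CXCL1, CXCL2, CXCL3, CXCL5, CXCL10 and CXCL11 are higher in every BRCA1-null than in every BRCA1+ library. The lines did not overlap in 70.9% of all tested genes within DMSO and in 69.5% within entinostat. The share over all 8 libraries was not computed. For CXCL11 the lowest BRCA1-null library had 4 counts, against 0 or 1 in the BRCA1+ libraries. For CXCL2 (0.396 against 0.347 CPM) and CXCL3 (0.607 against 0.582 CPM) the nearest libraries of the lines lie close together. CCL2 is lower in every BRCA1-null library, and CXCL8 separates by treatment.

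In entinostat, the same comparison of the lines again gave higher CXCL1, CXCL2, CXCL3, CXCL5 and CXCL10 and lower CCL2 in BRCA1-null cells. CCL20 was also called higher, CCL5 was not called, and CXCL8 lay at the threshold. Of the 9 tested chemokines 7 were called (6 higher and 1 lower), where 39.4% of all tested genes were called (20.5% higher and 18.9% lower). The median log2 fold change was 1.41 (1.33 without CXCL10), against 0.019 for all tested genes. The limit from the filter on CXCL10 and CXCL2 holds here too. Without CXCL10, 5 of 8 were called higher and 1 lower.

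CXCL1 had 25.5 and 19.6 CPM in BRCA1+ entinostat and 65.0 and 53.3 CPM in BRCA1-null entinostat libraries, a log2 difference of 1.41 ± 0.158 (adjusted p = 0.000138). CXCL2 had 11 and 4 counts in BRCA1+ and 60 and 43 counts in BRCA1-null entinostat libraries, a log2 difference of 2.58 ± 0.440 (adjusted p = 0.00149). CXCL5 had 4.70 and 3.75 CPM in BRCA1+ and 20.8 and 13.2 CPM in BRCA1-null entinostat libraries, a log2 difference of 2.04 ± 0.353 (adjusted p = 0.00164). None of these 3 genes overlapped between the lines, as was the case for 69.5% of all tested genes, and their calls held in all 14 alternatives. CXCL3 had 12 and 27 counts in BRCA1+ and 73 and 53 counts in BRCA1-null entinostat libraries, a log2 difference of 1.5 ± 0.406 (adjusted p = 0.016). Its call was lost without BRCA1+ entinostat replicate 1 (1.27, adjusted p = 0.0848), BRCA1-null entinostat replicate 1 (1.34, 0.0792) or BRCA1+ entinostat replicate 2 (1.90, 0.0572).

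CXCL8 had 200 and 152 CPM in BRCA1+ entinostat and 314 and 232 CPM in BRCA1-null entinostat libraries, without overlap. The log2 difference was 0.64 ± 0.226 with an adjusted p of 0.0505, and the interval of the fold was 1.09 to 2.21. It was called with only the groups compared (adjusted p = 0.0125). It was also called without BRCA1+ control replicate 1 or 2 (0.0449 and 0.0448), BRCA1-null control replicate 1 or 2 (0.0268 and 0.0259) or BRCA1-null entinostat replicate 2 (0.84, adjusted p = 0.0341), with values of 0.63 to 0.64 in the other fits named. Without BRCA1-null entinostat replicate 1 the value was 0.40 (adjusted p = 0.274), and without BRCA1+ entinostat replicate 2 it was 0.44 (0.278).

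CXCL10 had 0 and 1 counts in BRCA1+ entinostat and 41 and 11 counts in BRCA1-null entinostat libraries. The CPM ratio was 45.8 (7.87 to 1840), with an edgeR adjusted p of 0.00787. With BRCA1-null entinostat replicate 1 left out and both BRCA1+ entinostat libraries kept, the ratio was 20.6 (2.99 to 885). The call was lost without BRCA1+ entinostat replicate 1 (adjusted p = 0.0511), BRCA1-null entinostat replicate 1 (0.0556) or BRCA1+ entinostat replicate 2 (0.068), with fitted log2 differences of 4.59, 4.09 and 7.68. CXCL11 had 1 and 0 counts in BRCA1+ and 29 and 8 counts in BRCA1-null entinostat libraries, a CPM ratio of 32.6 (5.50 to 1320). With the same library left out, the ratio was 15 (2.01 to 664). Without a filter on low counts CXCL11 was called (adjusted p = 0.012, with a log2 difference of 4.74).

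CCL2 had 3.03 and 3.34 CPM in BRCA1+ and 1.3 and 1.08 CPM in BRCA1-null entinostat libraries. It fell by 1.42 on the log2 scale in BRCA1-null cells (SE 0.206; adjusted p = 0.000606), in all 14 alternatives. CCL5 had 1.01 and 0.841 CPM in BRCA1+ and 1.34 and 0.934 CPM in BRCA1-null entinostat libraries, and the groups overlapped. Its log2 difference was 0.34 ± 0.366 (adjusted p = 0.512; interval 0.712- to 2.24-fold). CCL20 had 1.01 and 0.539 CPM in BRCA1+ and 2.30 and 1.15 CPM in BRCA1-null entinostat libraries, a log2 difference of 1.26 ± 0.424 (adjusted p = 0.041). The CCL20 call was lost with the DESeq2 Wald test (adjusted p = 0.087) and with only the groups compared (0.0509). It was also lost without BRCA1+ control replicate 1 or 2 (1.25 and 1.26, adjusted p = 0.0579 and 0.0573), without BRCA1-null entinostat replicate 1 (0.65, 0.306) and without BRCA1+ entinostat replicate 2 (0.79, 0.311).

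Entinostat raised CXCL8 in both lines. In BRCA1+ cells it was the only 1 of the 9 tested chemokines to be called, where 14.1% of all tested genes were called (8.15% higher). CXCL8 went from 108 and 79.1 CPM in the control to 200 and 152 CPM in the entinostat libraries. Its groups did not overlap, as was the case for 57.0% of all tested genes, and its ratio within replicate numbers was 1.86 and 1.92. Such ratios are description only, since the replicate numbers were not taken as pairing. The log2 fold change was 0.91 ± 0.232 (adjusted p = 0.0315). The call was lost without BRCA1+ entinostat replicate 1 (0.71, adjusted p = 0.172), BRCA1+ control replicate 2 (0.71, 0.174) or BRCA1+ entinostat replicate 2 (1.1, 0.0642).

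The other 8 had log2 fold changes in BRCA1+ cells that did not pass the test. The values were -0.16 for CXCL1 (adjusted p = 0.6, interval 0.692- to 1.17-fold), 0.86 for CXCL2 (0.526), 0.46 for CXCL3 (0.647), 0.38 for CXCL5 (0.653), 0.34 for CCL2 (0.239), -0.02 for CCL5 (0.987) and 0.61 for CCL20 (0.539). No fold is given for CXCL10 or CXCL11, which had 0 or 1 counts in all 4 BRCA1+ libraries. The median of the 8 tested genes other than CXCL10 was 0.42, against 0.0004 for all tested genes. The CXCL1 and CXCL2 values changed sign, to 0.03 without BRCA1+ entinostat replicate 2 and to -0.27 without BRCA1+ entinostat replicate 1.

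In BRCA1-null cells, entinostat raised CXCL8 and CXCL2 and lowered CCL5. These were 3 of the 9 tested chemokines (2 higher and 1 lower), where 10.8% of all tested genes were called (7.57% higher and 3.19% lower). The median of the 9 was 0.60, against 0.019 for all tested genes. CXCL8 went from 111 and 72.5 CPM in the control to 314 and 232 CPM in the entinostat libraries, without overlap, as was the case for 54.7% of all tested genes. The change was 2.99-fold (interval 2.08 to 4.29), or 1.58 ± 0.232 on the log2 scale (adjusted p = 0.00519), and it was called in all 14 alternatives. Within replicate numbers the ratio was 2.83 and 3.20.

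CXCL2 went from 18 and 24 counts to 60 and 43 counts (0.396 and 0.442 to 1.28 and 1.03 CPM), without overlap, a log2 fold change of 1.46 ± 0.340 (adjusted p = 0.0287). Its call was lost in the Wald test of DESeq2 (adjusted p = 0.201), with only the groups compared (0.0627) and without any 1 of the 4 BRCA1-null libraries (values of 1.29 to 1.60 and adjusted p of 0.0557 to 0.148). CCL5 went from 1.87 and 2.89 CPM to 1.34 and 0.934 CPM, also without overlap. It fell by 1.07 on the log2 scale (SE 0.279; adjusted p = 0.0419), and the ratio within replicate numbers was 0.719 and 0.323. The CCL5 call was lost in the Wald test of DESeq2 (adjusted p = 0.088), with only the groups compared (0.111) and without each single library other than BRCA1-null control replicate 1. The log2 fold change was -0.70 without BRCA1-null control replicate 2, -0.84 without BRCA1-null entinostat replicate 2, -1.37 without BRCA1-null entinostat replicate 1 and -1.07 or -1.08 without a BRCA1+ library (adjusted p of 0.0607 to 0.227 in these fits).

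CXCL1 went from 46.1 and 36.1 CPM to 65.0 and 53.3 CPM in BRCA1-null cells, a log2 fold change of 0.53 ± 0.147 with an adjusted p of 0.0509. It was called with the DESeq2 Wald test (adjusted p = 0.00701) and without BRCA1-null control replicate 1 (0.69, adjusted p = 0.0441). CCL20 went from 0.857 and 0.534 CPM to 2.30 and 1.15 CPM, a log2 fold change of 1.36 ± 0.403 with an adjusted p of 0.0625, and it was called without BRCA1-null entinostat replicate 2 (1.75, adjusted p = 0.0291). Neither gene overlapped between treatments, as was the case for 54.7% of all tested genes. The other values were 0.60 for CXCL5 (adjusted p = 0.22), 0.64 for CXCL3 (0.253), 0.44 for CCL2 (0.321) and 0.54 for CXCL10 (0.585), whose counts were 28 and 12 in control and 41 and 11 in entinostat libraries. CXCL11 went from 9 and 4 to 29 and 8 counts, and without a filter its log2 fold change was 1.65 ± 0.698 (adjusted p = 0.183).

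**Figure D3:**
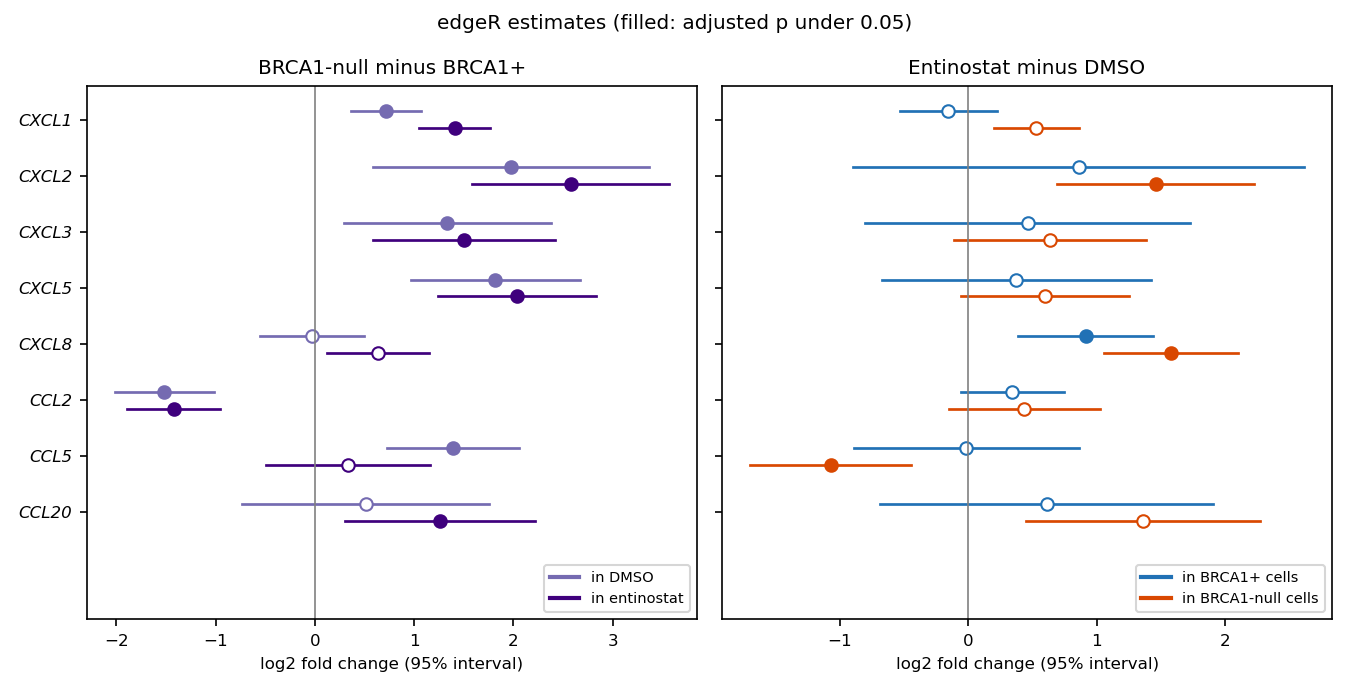
Log2 fold changes (x axis, points) with 95% intervals (lines) of 8 chemokines between the lines (left, in DMSO and in entinostat) and between treatments (right, in BRCA1+ and in BRCA1-null cells), with filled points for an adjusted p under 0.05. CXCL8 is filled only on the right, at 0.91 and 1.58, and CCL2 only on the left, at -1.52 and -1.42. CXCL10 is left out because its BRCA1+ libraries had at most 1 count.

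The difference in the entinostat effect between the lines was tested as an interaction, the effect in BRCA1-null minus that in BRCA1+ cells. Of the 9 tested chemokines 0 were called, as were 0% of all tested genes. Of the 17714 genes 827 had an unadjusted p under 0.05, and the DESeq2 Wald test called 11 genes, none of them a member, although it gave no adjusted p for CXCL2, CXCL3, CXCL10, CCL5 and CCL20. CXCL1 was the 1 member with an unadjusted p under 0.05 (0.0128), at 0.69 ± 0.222 on the log2 scale (adjusted p = 0.967). The interaction of CXCL8 was 0.66 ± 0.324 (adjusted p = 0.967) with an interval of 0.955- to 2.63-fold, and that of CCL5 was -1.05 ± 0.484 (adjusted p = 0.967) with an interval of 0.226- to 1.03-fold. A larger response of CXCL8 in BRCA1-null cells was therefore not shown by the test across genes.

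In the 3′UTRs of the MANE Select transcripts (GENCODE, lifted to GRCh37), the AU-rich nonamer TTATTTATT occurred in 4 of 8 members with a transcript, namely 5 times in CXCL2, 3 times in CXCL1 and once each in CXCL3 and CXCL8. It occurred in 9.52% of 13394 tested genes and in 6.29% of the 5565 whose 3′UTR was 473 to 1995 bases long, the range of the members. The pentamer ATTTA reached 14 per kilobase of 3′UTR in CXCL2, 10.4 in CXCL3, 7.77 in CXCL1 and 7.19 in CXCL8, against a median of 1.69 over tested genes. In the members without the nonamer it was 6.34 (CCL20), 5.51 (CXCL5), 1.23 (CXCL10) and 0.900 (CXCL11) per kilobase.

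Genes of NF-kB signalling were followed as a list of 20 subunits, kinases and inhibitors, of which all 20 were tested. BRCA1-null cells had 11 of them called higher and 0 lower in DMSO, with a median of 0.34, and 13 and 0 in entinostat, with a median of 0.40. Over all tested genes 21.1% and 20.5% were called higher and 21.0% and 18.9% lower in these comparisons. TNFAIP3, which encodes the feedback inhibitor A20, had 17.9 and 17.0 CPM in BRCA1+ control and 82.9 and 68.0 CPM in BRCA1-null control libraries. Its log2 difference was 2.11 ± 0.117 in DMSO (adjusted p = 2.94e-06), and under entinostat it was 2.18 (adjusted p = 2.57e-06). BIRC3, an inhibitor of apoptosis that is itself an NF-kB target, differed by 1.93 ± 0.362 (adjusted p = 0.00251) and 1.67 (adjusted p = 0.0039). These 4 calls held in all 14 alternatives. In DMSO the calls of NFKB1, REL and IKBKG depended on single libraries. Of 14 alternatives, 3 lost NFKB1, 4 lost REL and 2 lost IKBKG. TNFAIP3 overlaps LOC100130476 in the table, so reads of the shared part may have been counted for either. In entinostat the count of 13 was 8 without BRCA1+ entinostat replicate 2.

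With entinostat 1 of the 20 was called higher in BRCA1+ cells (8.15% of all tested genes were), NFKBIA (IkB-alpha), at 0.37 ± 0.0712 (adjusted p = 0.0111). This count was 0 without BRCA1+ entinostat replicate 1 or BRCA1+ control replicate 2, and 2 without either BRCA1-null control library, with upper-quartile factors or with only the groups compared. The DESeq2 Wald test called 3. In BRCA1-null cells 3 were called higher (7.57% of all tested genes were), namely TNFAIP3 at 0.49 (adjusted p = 0.0203), NFKBIA at 0.30 (0.0262) and TNIP1, a partner of A20, at 0.29 (0.0294). This count was 0 without BRCA1-null control replicate 2, 1 without any of the other BRCA1-null libraries, and 0 with only the groups compared.

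Of 28 inflammatory cytokines and their receptors 20 were tested, and BRCA1-null cells had 10 called higher and 5 lower in DMSO (9 and 3 in entinostat), where 21.1% and 21.0% of all tested genes were (20.5% and 18.9% in entinostat). The medians were 0.55 and 0.56. IL1A, an alarmin that activates NF-kB, had 3.10 and 3.31 CPM in the control and 11.1 and 9.66 CPM in the entinostat libraries of BRCA1+ cells. In BRCA1-null cells it had 23.4 and 18.1 CPM in the control and 43.3 and 39.2 CPM in the entinostat libraries. The log2 difference between the lines in DMSO was 2.68 ± 0.168 (adjusted p = 5.72e-06). Entinostat raised it by 1.68 on the log2 scale in BRCA1+ cells (adjusted p = 0.0012), and the rise was 1.0 in the BRCA1-null line (adjusted p = 0.00251). All of these IL1A calls held in the 14 alternatives. IL1RN, the secreted antagonist of the IL-1 receptor, had 2 and 6 counts in BRCA1+ control and 111 and 66 counts in BRCA1-null control libraries (adjusted p = 0.00205). IL17RC, a subunit of the IL-17 receptor, fell by 0.95 on the log2 scale in BRCA1-null cells in DMSO (adjusted p = 0.00016). Without BRCA1+ control replicate 2 the 15 calls in DMSO were 9, and without BRCA1+ entinostat replicate 2 the 12 calls in entinostat were 7. TNF, LTA and LTB are placed on a chromosome 6 haplotype contig in the table and had 0 counts in every library, so they could not be measured.

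The entinostat comparisons called 3 of these 20 genes higher in BRCA1+ and 4 in BRCA1-null cells, with 0 lower, where 8.15% and 7.57% of all tested genes were called higher. The first count was 1 without BRCA1+ entinostat replicate 2, 6 with the DESeq2 Wald test and 7 with only the groups compared. The second was 1 without BRCA1-null entinostat replicate 1, without BRCA1-null control replicate 2 or with only the groups compared.

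Of 20 interferon signalling genes 16 were tested, and BRCA1-null cells had 4 called higher and 2 lower in DMSO (4 and 3 in entinostat), near the 42.2% and 39.4% called among all tested genes, with medians of 0.0015 and 0.033. IRF9, the DNA-binding subunit of the complex that acts on interferon-response elements, differed by 1.47 ± 0.281 in DMSO (adjusted p = 0.00274), in all 14 alternatives. JAK1, a kinase of the interferon receptors, fell by 0.67 in BRCA1-null cells (adjusted p = 0.000165), also in all 14. IFNG had 0 counts in every library and IFNB1 0 or 1. In entinostat the 7 calls were 2 without BRCA1+ entinostat replicate 2. Entinostat against DMSO called 1 gene in each line, IFNGR2, at 0.32 in BRCA1+ cells (adjusted p = 0.0332) and at 0.34 in the BRCA1-null line (adjusted p = 0.0298). The first was lost without any 1 of the 4 BRCA1+ libraries. The second was lost with only the groups compared, without either BRCA1+ entinostat library and without any 1 of the 4 BRCA1-null libraries (highest adjusted p 0.172).

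CXCR1, a receptor of CXCL8, and CCR2, the receptor of CCL2, had 0 counts in every library. CXCR2 had 16 counts over both BRCA1+ control and 53 over both BRCA1-null control libraries. It was called higher in BRCA1-null cells in DMSO (1.5, edgeR adjusted p = 0.0184), and 3 of 14 alternatives lost the call. CXCR3 had group means of 2.47 to 5.02 CPM. It was called lower in BRCA1-null cells in entinostat (-0.70, edgeR adjusted p = 0.0325), and 3 of 14 alternatives lost the call. Its position overlaps BCYRN1. Among the 23 chemokine receptor genes listed, 10 were tested. Of these, 4 were called higher and 3 lower in DMSO when BRCA1-null was compared with BRCA1+, where 42.2% of all tested genes were called. CCR6, the receptor of CCL20, had 0.825 and 0.545 CPM in BRCA1+ control and 1.54 and 2.39 CPM in BRCA1-null control libraries, a log2 difference of 1.56 ± 0.323 (adjusted p = 0.00424). ACKR2, a decoy receptor that takes up CC chemokines, had 25.2 and 23.8 CPM in BRCA1+ control and 1.32 and 2.28 CPM in BRCA1-null control libraries. It fell by 3.74 on the log2 scale in BRCA1-null cells (SE 0.171; adjusted p = 1.1e-06). CXCR4 fell by 2.52 (SE 0.239; adjusted p = 4.93e-05). These 3 calls held in all 14 alternatives. In entinostat 2 receptors were called higher and 4 lower, where 39.4% of all tested genes were called. CCR10 was the 1 receptor called with entinostat in each line, at 1.53 in BRCA1+ cells (adjusted p = 0.0452) and at 1.29 in the BRCA1-null line (adjusted p = 0.00749). The BRCA1+ call was lost without any 1 of the BRCA1+ libraries or of the BRCA1-null control libraries, with a highest adjusted p of 0.191.

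Of 34 other chemokine genes 7 were tested, and BRCA1-null cells had 2 called higher and 0 lower in DMSO (3 and 0 in entinostat), where 42.2% and 39.4% of all tested genes were called. CX3CL1, a membrane-bound chemokine for T cells and monocytes, had 0.876 and 0.850 CPM in the control and 2.87 and 2.93 CPM in the entinostat libraries of BRCA1+ cells. In BRCA1-null cells it had 7.65 and 5.23 CPM in the control and 15.1 and 10.4 CPM in the entinostat libraries. It differed between the lines by 2.88 ± 0.346 in DMSO (adjusted p = 0.000195). Entinostat raised it by 1.75 on the log2 scale in BRCA1+ cells (adjusted p = 0.026), and the rise was 1.01 in the BRCA1-null line (adjusted p = 0.0179). The BRCA1+ call was lost without any 1 of the 4 BRCA1+ libraries (highest adjusted p 0.131), and the BRCA1-null call with only the groups compared and without entinostat replicate 1 or control replicate 2 (highest adjusted p 0.109). CXCL16, the ligand of CXCR6, differed between the lines by 0.73 ± 0.0911 in DMSO (adjusted p = 0.000246) and overlaps MED11 in the table. CXCL17 was called in entinostat, at 1.26 ± 0.390 (adjusted p = 0.0293), and lost with the DESeq2 Wald test and without either BRCA1+ entinostat library or BRCA1-null entinostat replicate 2 (highest adjusted p 0.215).

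Of 10 genes listed for AU-rich element binding or mRNA decay, BRCA1-null cells had 3 called higher and 2 lower in DMSO and likewise in entinostat. These counts lay near the 42.2% and 39.4% called among all tested genes. ZC3H12A, which encodes the ribonuclease Regnase-1, differed by 0.88 ± 0.123 in DMSO (adjusted p = 0.000466), and TIA1 fell by 0.47 (adjusted p = 0.0014). In entinostat the 5 calls were 3 without BRCA1-null entinostat replicate 1 and 2 without BRCA1+ entinostat replicate 2. With entinostat 0 were called higher and 2 lower in BRCA1+ cells, KHSRP and TIAL1, both lost without any 1 of the BRCA1+ libraries. In BRCA1-null cells 0 of the 10 were called by edgeR and 0 by DESeq2, with 1 (KHSRP) at an unadjusted edgeR p under 0.05.

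**Figure D4:**
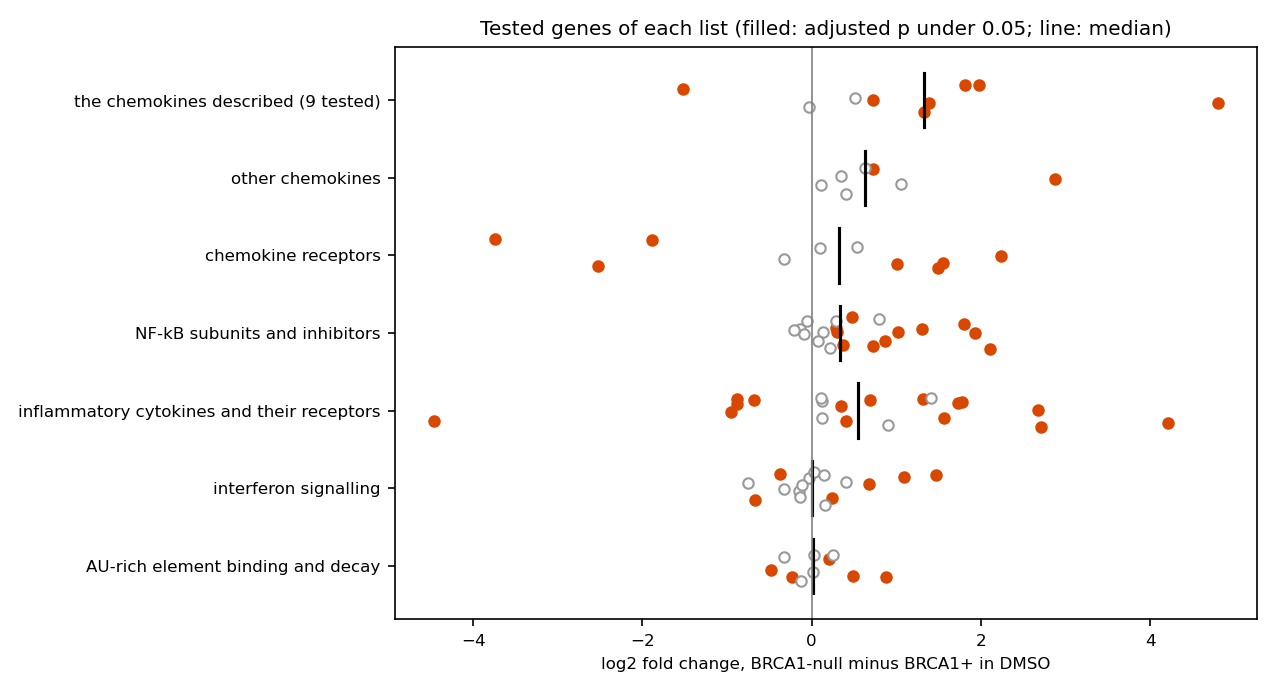
Log2 fold change between BRCA1-null and BRCA1+ cells in DMSO (x axis) of the 9 tested chemokines and of the tested genes of each list (rows; points are genes, filled for an adjusted p under 0.05, and black lines are medians; vertical scatter has no meaning). The called NF-kB genes, 11 of 20, are all on the right of 0, where 21.1% of all tested genes were called higher and 21.0% lower. The interferon list is centred at 0. These lists are unlike, as the NF-kB list includes feedback inhibitors and the interferon list holds no antiviral effector genes. The point at 4.80 is CXCL10, whose fitted value depends on counts near 0.

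The genes whose log2 CPM followed a chemokine most closely over the 8 libraries were listed by Pearson's r, as a description, since the libraries share 2 lines and 2 treatments and form clusters. For CXCL1 they were SOD2 (0.993), LPCAT1 (0.991) and ANKRD65 (0.989), and for CXCL8 SLC25A45 (0.993), MXI1 (0.988) and MAP7D2 (0.980). For CXCL5 they were PLTP (0.989), B3GNT7 (0.988) and DPP4 (0.988). For CXCL2 the closest was DRAM1 (0.995). CCL2 was followed by MTUS1 (1.0 after rounding), GDA (0.998) and SLC48A1 (0.997), and CCL20 by LOC100506071 (0.966), SYPL1 and BCL10 (0.962 each).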

How the data were processed

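Raw read counts per gene were analysed as deposited. The authors aligned poly(A) RNA-seq reads to hg19 with TopHat 2 and made the counts with NGSUtils, and the table carries no normalisation. Treatment of strand and of reads with several positions is not given in the sources used here. All 8 libraries were grouped by their titles. A single entry without a name held 0 counts. Counts were tested with edgeR 4.0.16 in R 4.3.3 (filterByExpr, TMM, quasi-likelihood test, 1 mean for each group, 4 residual degrees of freedom, legacy set to FALSE), two-sided, and a gene was called at a Benjamini-Hochberg adjusted p under 0.05 over 17714 genes. Standard errors and 95% intervals come from this fit, and CPM used TMM-scaled library sizes. Ratios with 1 count in a group carry exact conditional intervals. The steps were tested on simulated data, where the share of false calls exceeded the nominal level, so calls close to the threshold are the least certain. As alternatives the scaling was changed to upper-quartile factors or DESeq2 size factors, the filter was dropped, and the fits were repeated with the DESeq2 1.42.0 Wald test, the replicate block, only the groups compared, an unadjusted p under 0.01 as well, and the omission of each library. Replicates differed by more than sampling noise (chi-square per gene 8.18 to 14.1). Total counts of 31900158 to 53549893 limit the precision of genes with few counts. The exact intervals and the floor of 3 counts cover counting error only. The members and lists were chosen with earlier results of these data known. From each list, up to 2 called genes with the largest positive and 2 with the largest negative change were eligible to be named at a mean log2 CPM of 0 or more, and all called genes of a list with 3 or fewer calls. Other listed genes (ligands and receptors of the members, and genes with 0 counts) were named for their role. Promoters came from RefSeq (GRCh38.p14) and transcripts from GENCODE on GRCh37, matched by symbol, and positions from the table (hg19, counted from 1).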

Additional observations from a re-analysis of the deposited data

How the results depend on the processing

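Of 18 member calls over the 4 comparisons, 9 held in every alternative and none changed sign. With the replicate numbers of the titles as a block, 6 members were called with entinostat in BRCA1-null cells in place of 3 (20.6% of all genes, in place of 10.8%). The added genes were CXCL1 (adjusted p = 0.00106), CXCL5 (0.00542) and CCL20 (0.00893), and CXCL8 between the lines in entinostat was called as well (0.63, adjusted p = 1.5e-05). The block changed no other member call. Deviations from the group means correlated at 0.234 to 0.718 between same-numbered libraries of different groups, but with 2 libraries a group each comparison has 2 pairs, and nothing in the labels says what a number shares, so the numbers were not taken as pairing. With only the groups compared, 1 member was called with entinostat in BRCA1-null cells. Leaving out 1 library gave 4 to 6 calls between the lines in DMSO, 4 to 8 in entinostat, 0 to 1 for entinostat in BRCA1+ and 1 to 3 in BRCA1-null cells. With upper-quartile factors the sign changed for CXCL8 between the lines in DMSO (0.0147) and for CCL5 with entinostat in BRCA1+ cells (0.0322; 0.0056 with the DESeq2 Wald test), and 72.5% in place of 57.6% of all calls in the latter comparison were higher. Without 1 library, changes of sign left these ranges, all without a call: -0.34 to 0.25 for CXCL8 between the lines in DMSO; for entinostat in BRCA1+ cells -0.34 to 0.0341 for CXCL1, -0.27 to 1.70 for CXCL2, -2.35 to 2.48 for CXCL10 and -0.13 to 0.13 for CCL5; -0.60 to 1.37 for CXCL10 in BRCA1-null cells; and for the interaction -0.24 to 1.72 for CXCL2, -0.31 to 0.73 for CXCL3, -0.18 to 0.68 for CXCL5, -1.95 to 2.88 for CXCL10 and -0.0715 to 0.22 for CCL2. The cause of these changes was not tested beyond the smaller number of libraries. Low counts limit CXCL2, CXCL3, CXCL10, CXCL11 and CCL20.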
